A study of Arabidopsis thaliana with 72 samples.

Results

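PPDK (AT4G15530) encodes pyruvate orthophosphate dikinase, the enzyme that makes phosphoenolpyruvate (PEP) from pyruvate, ATP and phosphate. It was followed here with its single probe set, the 1 probe set among 28583 on the array that the platform annotation assigns to PPDK, and no other probe set lists the gene. The gene was selected on earlier values of these same arrays, namely its higher level in long days than in short days in whole leaf and in mesophyll. Those 2 day-length differences are therefore described below without a test.

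In plants with C4 photosynthesis PPDK regenerates the PEP that captures carbon dioxide in mesophyll cells. Arabidopsis is a C3 plant and does not depend on the enzyme for carbon fixation. There PPDK is known for moving carbon and nitrogen out of ageing leaves, for a part in seedling metabolism, and for PEP supply around veins. The gene gives a long transcript for a plastid form and a shorter one for a cytosolic form, and 1 probe set does not tell the forms apart. PPDK protein is switched off and on by the regulatory proteins RP1 and RP2, which act on the enzyme and not on its transcript.

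The arrays carry RNA from cotyledons of wild type Arabidopsis thaliana (Col-0) raised on Murashige and Skoog (MS) plates that held sucrose at 0.5%. Seedlings stood in long days, with 16 h of light and 8 h of dark, or in short days, with 8 h of light and 16 h of dark. In each day length RNA came from whole cotyledons (the label's whole leaf), from mesophyll or from vasculature, the last 2 freed with enzymes and sonication. Each of the 6 groups has 12 arrays, 1 for each of 6 Zeitgeber times (ZT, hours after lights on) from 0 to 20 on day 9 and again on day 10, 72 arrays in all. No label says that day 9 and day 10 arrays came from separate cultures, so p-values reflect only how far these arrays spread, and that spread may be technical.

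The isolated tissues differed in their markers, which, like the other lists, were chosen with earlier results of these data known. All 6 measured mesophyll markers were lower in vasculature than in mesophyll in both day lengths, among them SBPASE, a Calvin cycle phosphatase, at -2.94 in long and -2.83 in short days on the log2 scale. All 5 measured vein markers were higher there, with GTR2, a glucosinolate transporter, at 6.66 under long and 5.94 under short days, and each was called except OPS in long days, whose 0.99 lay under the minimum difference of 1. Over all probe sets the long day arrays gave 12.8% called lower and 12.7% higher in vasculature, and the short day arrays 12.6% and 12.4%. The guard cell genes FMA and BLUS1 had group means between 1.60 and 2.27 on the log2 scale in the isolated tissues, against 2.97 to 4.25 in whole leaf. Array medians ran from 3.29 to 3.77. Long day whole leaf replicate 7 (ZT0 of day 10) had a mean intensity of 54.2, against at least 67.8 on every other array. The mean differences over the day and the 24 h cosine test of cycling that use it are also given without it. Other values include it unless stated.

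PPDK was a well-measured transcript in 2 of the 6 groups, long day whole leaf and long day mesophyll. In long day whole leaf its intensity ran from 7.77 to 172, with a median of 64.3, and in long day mesophyll from 5.92 to 79.4, with a median of 41.3. In long day vasculature it ran from 3.11 to 9.99, with a median of 4.74. These values place PPDK above a median of 89.0% of probe sets of the same array in long day whole leaf, 85.6% in long day mesophyll and 57.7% in long day vasculature.

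In short days PPDK was low in every tissue. Its intensity ran from 3.85 to 15.5 in whole leaf (median 5.85), from 3.18 to 22.0 in mesophyll (median 5.52) and from 3.29 to 9.73 in vasculature (median 5.29). The median array percentiles were 61.9, 63.1 and 59.4. The filter on low values sat at an intensity of 2.77, so short day and vascular values lie near the floor, where background correction weighs most.

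On the log2(intensity + 1) scale the group means fell into an order with 1 wide step. Long day whole leaf stood at 5.64 ± 1.56 (SD, n = 12) and long day mesophyll at 4.93 ± 1.38. Below the step came short day whole leaf at 2.92 ± 0.56, short day mesophyll at 2.91 ± 0.76, short day vasculature at 2.70 ± 0.43 and long day vasculature at 2.67 ± 0.46. The SDs hold the daily time course as well as the spread between days. Over all times the ranges of the lower 4 groups overlapped, and long day whole leaf and mesophyll reached down into them (lowest 3.13 and 2.79). At ZT4, however, the time mean of short day vasculature was 2.31, against 3.86 in short day whole leaf and 4.15 in short day mesophyll.

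**Figure D1:**
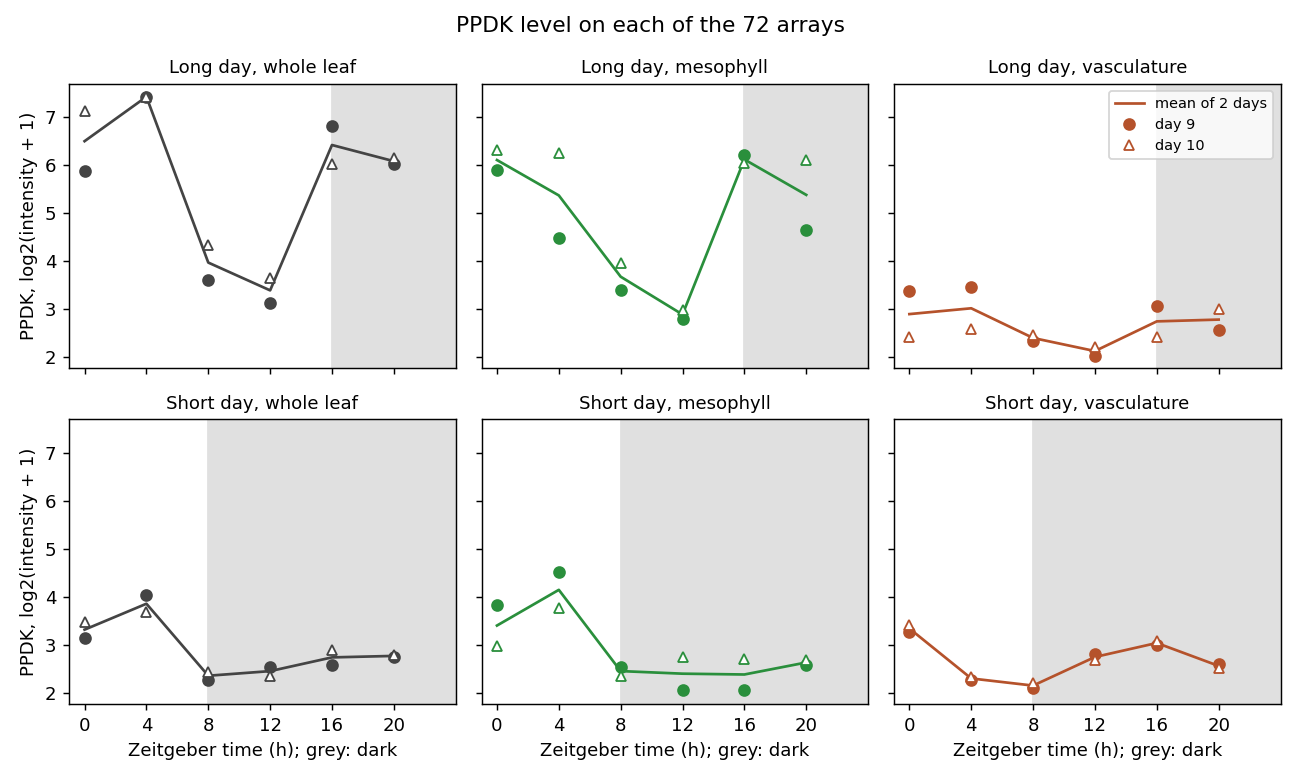
PPDK on each of the 72 arrays, as log2(intensity + 1) against Zeitgeber time in hours, in a panel for each day length and tissue; filled circles are day 9, open triangles day 10, lines the mean of both, and grey marks darkness (ZT16 in long days and ZT8 in short days stand at lights off). Long day whole leaf and mesophyll reach 7.43 and 6.33 at their highest and drop to 3.13 and 2.79 at ZT12, while every short day array stays at or below 4.53.

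The daily course in long day whole leaf had a trough in the afternoon and a high plateau from dusk to morning. At ZT0 the intensity was 58.0 on day 9 and 139 on day 10, and at ZT4 it was 171 and 172. At ZT8 it was 11.2 and 19.3, and at ZT12 it was 7.77 and 11.6. At ZT16, when the light ended, it was 112 and 64.6, and at ZT20 it was 64.1 and 70.1. The 8 arrays of ZT16 to ZT4 thus all lay at or above 58.0 and the 4 arrays of ZT8 and ZT12 at or below 19.3, with no overlap. From the ZT12 trough to the ZT4 peak the time means differed by 4.03 on the log2 scale, or 16.4-fold, while single arrays lay about the mean of their time with an SD of 0.50.

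Long day mesophyll had the same trough, and its days agreed less at ZT4 and ZT20 than those of whole leaf. Its intensity was 58.5 on day 9 and 79.4 on day 10 at ZT0, and 21.4 and 75.7 at ZT4. At ZT8 it was 9.57 and 14.6, and at ZT12 5.92 and 6.98. At ZT16 it was 72.9 and 64.9, and at ZT20 24.2 and 68.4. The trough arrays did not overlap the others, but at ZT4 and ZT20 day 10 stood far above day 9. The highest time mean stood at ZT16 (6.12), 3.23 above ZT12 on the log2 scale, or 9.39-fold.

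Short day whole leaf and mesophyll peaked in the morning and stayed low from the end of the light onward. In short day whole leaf PPDK was at 7.93 and 10.2 at ZT0 and at 15.5 and 11.9 at ZT4, against 3.85 to 6.50 on the 8 arrays of ZT8 to ZT20. In short day mesophyll it was at 13.2 and 6.93 at ZT0 and at 22.0 and 12.7 at ZT4, against 3.18 to 5.72 from ZT8 to ZT20. The ZT0 and ZT4 arrays lay above all later ones in both. No plateau at ZT16 and ZT20 like that of long days was seen, with time means at those times of 2.75 and 2.78 in whole leaf and 2.39 and 2.64 in mesophyll.

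The vasculature had another course in short days. There PPDK was at 8.65 and 9.73 at ZT0, dropped to 3.83 and 4.07 at ZT4 and 3.29 and 3.64 at ZT8, and stood at 6.05 and 5.45 at ZT12, 7.02 and 7.49 at ZT16 and 5.13 and 4.73 at ZT20. The 2 days agreed closely, with an SD of single arrays about the mean of their time of 0.08 on the log2 scale and a correlation across the 6 times of 0.97 (Pearson's r, given as a description). In long day vasculature the days did not agree: ZT0 was 9.41 on day 9 and 4.36 on day 10, ZT4 9.99 and 5.01, and ZT16 7.39 and 4.39. ZT12 was its lowest time, at 3.11 and 3.67, and its correlation between days was 0.12, against 0.92 in long day whole leaf, 0.86 in long day mesophyll, 0.90 in short day whole leaf and 0.84 in short day mesophyll.

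A 24 h cosine has neither the plateau nor the sharp trough of the long day whole leaf and mesophyll courses. How well it fitted was not measured. Tested by limma with a moderated F on cosine and sine terms, PPDK passed the threshold for cycling (a Benjamini-Hochberg adjusted p below 0.03 across the 21827 probe sets that passed the filter) in short day whole leaf alone, with an amplitude of 0.58 ± 0.15 (SE, log2) and a fitted peak at 1.37 h (adjusted p = 0.023), in a group where 34.7% of probe sets passed. That call was lost without replicate 2, 4, 5, 7, 8 or 10 in turn, with amplitudes from 0.47 to 0.62 and limma adjusted p up to 0.055. The larger amplitudes missed the threshold: 1.59 ± 0.41 in long day whole leaf (peak 23.2 h, limma adjusted p = 0.057, or 0.094 without replicate 7, and 9.52% of probe sets passing), 1.42 ± 0.35 in long day mesophyll (22.0 h, limma adjusted p = 0.04, 13.3% passing) and 0.80 ± 0.19 in short day mesophyll (2.32 h, limma adjusted p = 0.038, 12.0% passing). In vasculature the amplitude was 0.37 ± 0.15 in long days (limma adjusted p = 0.35, 3.16% passing) and 0.36 ± 0.14 in short days (limma adjusted p = 0.18, 14.5% passing).

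An F test with the 6 times as separate levels, added after the shapes were seen, asks whether the times differ at all. By it PPDK passed the threshold of 0.03 in 4 groups. The whole leaf and mesophyll arrays were part of the selection. Their p-values by this test and by the cosine may therefore not be independent of it. Limma adjusted p was 0.00061 in long day whole leaf (19.4% of probe sets passing), 0.0041 in long day mesophyll (25.5%), 0.00016 in short day whole leaf (40.9%) and 0.00021 in short day vasculature (18.2%). It gave limma adjusted p = 0.046 in short day mesophyll (10.9% passing) and 0.52 in long day vasculature (4.86% passing), above the threshold of 0.03.

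Whether the course differs between vein and mesophyll was tested as an interaction of tissue with time. With the cosine and sine the fitted rhythms of the tissues lay 1.1 apart in long days (limma adjusted p = 0.2, 7.14% of probe sets passing) and 0.94 apart in short days (limma adjusted p = 0.058, 6.13% passing), neither under the threshold of 0.05. With single replicates left out in turn, the short day limma adjusted p ran from 0.021 (without replicate 7) to 0.22 (without replicate 2). Only the run without replicate 7 lay under 0.05. The form with the 6 times as levels was added after the shapes were seen. It gave limma adjusted p = 0.0076 in short days (9.6% passing) and 0.064 in long days (16.6% passing). The mesophyll arrays were part of the selection, so the p-values of these interactions may not be independent of it. In short days vasculature minus mesophyll was -1.85 on the log2 scale at ZT4 and 0.66 at ZT16. At ZT0 and ZT20 it was -0.06 and -0.07.

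The comparisons between tissues set the PPDK levels of the isolated tissues and of whole leaf side by side. Only the isolated tissues went through enzymes and sonication, so in differences from whole leaf tissue and isolation cannot be told apart. In long days mesophyll and vasculature both lay below whole leaf at 6 of 6 times, and the cause was not tested. These comparisons draw on the whole leaf and mesophyll arrays whose levels were part of the selection. Their values are therefore given with SE and no p-value. In long days PPDK was 4.80-fold lower in vasculature than in mesophyll, a log2 difference of -2.26 ± 0.21 (SE from limma; 12 arrays in each group). A probe set was called when its adjusted p was below 0.05 and its log2 difference was 1 or more in size, and 25.5% of probe sets were called here. It was lower in vasculature in 12 of 12 pairs of arrays of the same time and day. The gap was widest at ZT16 (-3.37) and ZT0 (-3.21) and narrowest at the ZT12 trough (-0.76). Against whole leaf, vasculature was 7.84-fold lower, a difference of -2.97 ± 0.17 (20.1% of probe sets called), again in 12 of 12 pairs, and without long day whole leaf replicate 7 the difference was -2.87. In such bulk samples fewer cells of a type and less RNA per cell cannot be told apart.

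Long day mesophyll lay below whole leaf by less. The difference was -0.71 ± 0.22 (1.63-fold), under the minimum of 1 and so not called, where 11.2% of probe sets were. Mesophyll was lower in 10 of 12 pairs and at 6 of 6 times, with ZT4 the widest at -2.06 and the other times between -0.29 and -0.70. At ZT4 the intensity was 21.4 in mesophyll against 171 in whole leaf on day 9, and 75.7 against 172 on day 10. Without long day whole leaf replicate 7 the mean difference was -0.60.

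In short days the daily means of the tissues lay close together, although differences of opposite sign at single times cancelled in those of vasculature. Vasculature minus mesophyll was -1.85 at ZT4 and 0.66 at ZT16, and vasculature minus whole leaf -1.56 at ZT4 and 0.30 at ZT16. Over the day mesophyll and whole leaf were -0.01 ± 0.12 apart (95% confidence interval -0.28 to 0.25), where 12.2% of probe sets were called. Vasculature and mesophyll were -0.21 ± 0.12 apart (interval -0.46 to 0.03; 25.1% called). Vasculature minus whole leaf was -0.23 ± 0.06 (interval -0.35 to -0.10). That is under the minimum of 1 and so not called, where 20.9% of probe sets were. Vasculature was lower in 7 of 12 pairs. These SEs and intervals hold only the spread of arrays within a time, not the change of sign across times, and are given as descriptions. The gap between the vein's difference in long and in short days was not tested, since it contains the day-length difference for which PPDK was picked.

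The comparison between day lengths was tested in vasculature, which as far as is known was not among the values the gene was selected on. There the long day level minus the short day level was -0.03 ± 0.12 (limma adjusted p = 0.87; interval -0.28 to 0.22; 1.48% of probe sets called), with long days higher at 3 of 6 times. By time it ran from -0.62 at ZT12 to 0.72 at ZT4.

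In whole leaf and mesophyll the day-length difference is given as a description. Whole leaf was 2.72 higher in long days on the log2 scale (6.57-fold), the 10th largest of 21827 probe sets, with long days higher in 12 of 12 pairs, and 9 of its 12 arrays stood above the highest short day array. Without long day whole leaf replicate 7 the difference was 2.61. Mesophyll was 2.02 higher (4.05-fold), the third largest of 21827, with long days higher in 11 of 12 pairs and 7 of 12 arrays above the highest short day array. The exception was ZT4 of day 9, at 21.4 in long days and 22.0 in short days.

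The size of this difference depended on the time of day. In whole leaf it was 3.68 at ZT16 (12.8-fold), 3.57 at ZT4, 3.31 at ZT20 and 3.18 at ZT0 (2.56 without long day replicate 7), against 1.61 at ZT8 and 0.94 at ZT12. In mesophyll it was 3.74 at ZT16 (13.3-fold), 2.75 at ZT20 and 2.70 at ZT0, against 1.22 at ZT4, 1.22 at ZT8 and 0.49 at ZT12. The mean of the days was thus lowest at ZT12, when long day seedlings were in light and short day seedlings had been dark for 4 h, and highest at ZT16, but the order of the times was not the same on both days. On day 9 it was highest at ZT16 in both tissues (4.23 and 4.14), while on day 10 it was highest at ZT4 in whole leaf (3.75, against 3.13 at ZT16) and at ZT20 in mesophyll (3.42, against 3.33 at ZT16). ZT12 was lowest on both days in whole leaf (0.58 and 1.30). In mesophyll ZT12 was lowest on day 10 (0.25), and on day 9 the lowest was ZT4 (-0.04, against 0.73 at ZT12), so that the ZT4 mean of 1.22 joins -0.04 and 2.48.

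**Figure D2:**
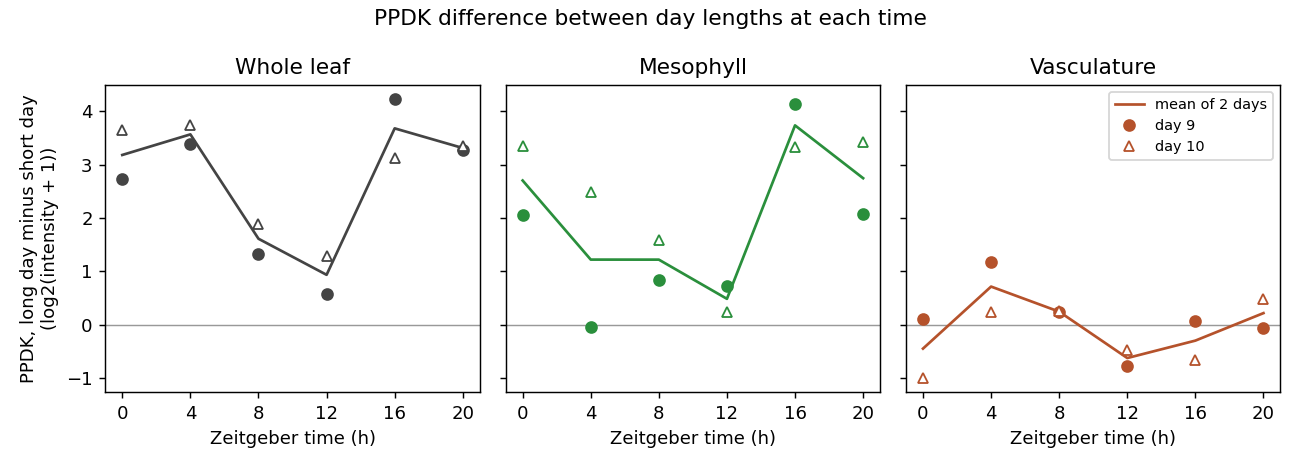
Long day minus short day level of PPDK on the log2(intensity + 1) scale against Zeitgeber time in hours, in a panel for each tissue; circles are day 9, open triangles day 10, lines the mean of both. The means of whole leaf and mesophyll are highest at ZT16 (3.68 and 3.74) and lowest at ZT12 (0.94 and 0.49), although on day 10 whole leaf is highest at ZT4 (3.75) and mesophyll at ZT20 (3.42), and on day 9 mesophyll is lowest at ZT4 (-0.04). Vasculature stays between -0.62 and 0.72 in its time means.

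Few genes of PEP and pyruvate metabolism have a probe set of their own on this annotation. Of 31 listed genes around PPDK, among them RP1 and RP2, the PEP carboxylases, malic enzymes and plastid transporters, 2 were measured. NADP-MDH, the plastid NADP malate dehydrogenase, differed by 0.18 and 0.21 between vasculature and mesophyll in the 2 day lengths and was not called. Its day-length difference was 0.02 in whole leaf and 0.30 in mesophyll. The other, AT5G35170, was called lower in vasculature, at -2.29 in long and -2.27 in short days, where PPDK had -2.26 and -0.21. Its day-length difference was 0.30 in whole leaf and 0.20 in mesophyll.

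Other routes that use pyruvate, PEP or their amino acids are covered by single genes. AlaAT1, an alanine aminotransferase and the measured member of 19 genes of nitrogen remobilisation and senescence, was called lower in vasculature than in mesophyll, at -1.22 under long and -1.40 under short days. Of 8 listed shikimate pathway genes 2 were measured, and AT1G22410 was higher in vasculature by 1.26 and 1.05 while AT2G45300 differed by 0.09 and -0.05. AKINBETA1, a regulatory subunit of the SnRK1 energy-sensing kinase and the measured member of 10 dark and starvation genes, differed by -0.70 and -0.32 and was not called. Its long day whole leaf level was lowest at ZT16, at 5.74, where PPDK was at 6.43, and its correlation with PPDK over the 72 arrays was 0.04.

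The next 5 genes were taken by their RefSeq names after the probe sets were known. MDH, the plastid NAD malate dehydrogenase, was higher in vasculature by 1.06 in long days and differed by 0.79 in short days. PDC2 and PDC3, which turn pyruvate into acetaldehyde, differed by 0.49 and -0.14 in long days and by 0.39 and -0.04 in short days. PDC2 was 0.86 higher in long days in whole leaf, 0.78 in mesophyll and 0.88 in vasculature, a difference of like size in the 3 tissues where PPDK's was 2.72, 2.02 and -0.03. SAG29 (SWEET15), a sugar transporter known from senescing leaves, had a whole leaf mean of 7.11 at ZT4 in long days and 4.51 at ZT4 in short days, against at most 2.81 at the other times. SAG101, linked to senescence and defence, differed between the day lengths by 0.14 in whole leaf.

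The clock list had 2 measured members of 13. GI, a clock and photoperiod gene, cycled in all 6 groups with amplitudes from 3.18 to 3.67 and fitted peaks between 5.67 and 8.37 h. Of all probe sets between 3.16% (long day vasculature) and 34.7% (short day whole leaf) passed. The other, AT5G52660, passed for cycling in short day whole leaf and short day mesophyll and in no other group. Its fitted rhythms in vasculature and mesophyll lay 0.74 apart in long days (limma adjusted p = 0.015, 7.14% of probe sets passing). It was lower in vasculature than in mesophyll in long days (-1.24) and had -0.98 in short days, where it was not called. In long day whole leaf PPDK was low near the fitted GI peak of 8.37 h. In short day whole leaf and mesophyll the fitted GI peaks were at 6.57 and 6.46 h. There PPDK was highest at ZT4 and low from ZT8 to ZT20. Over the 72 arrays with group means subtracted the correlation of PPDK and GI was -0.28.

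**Figure D3:**
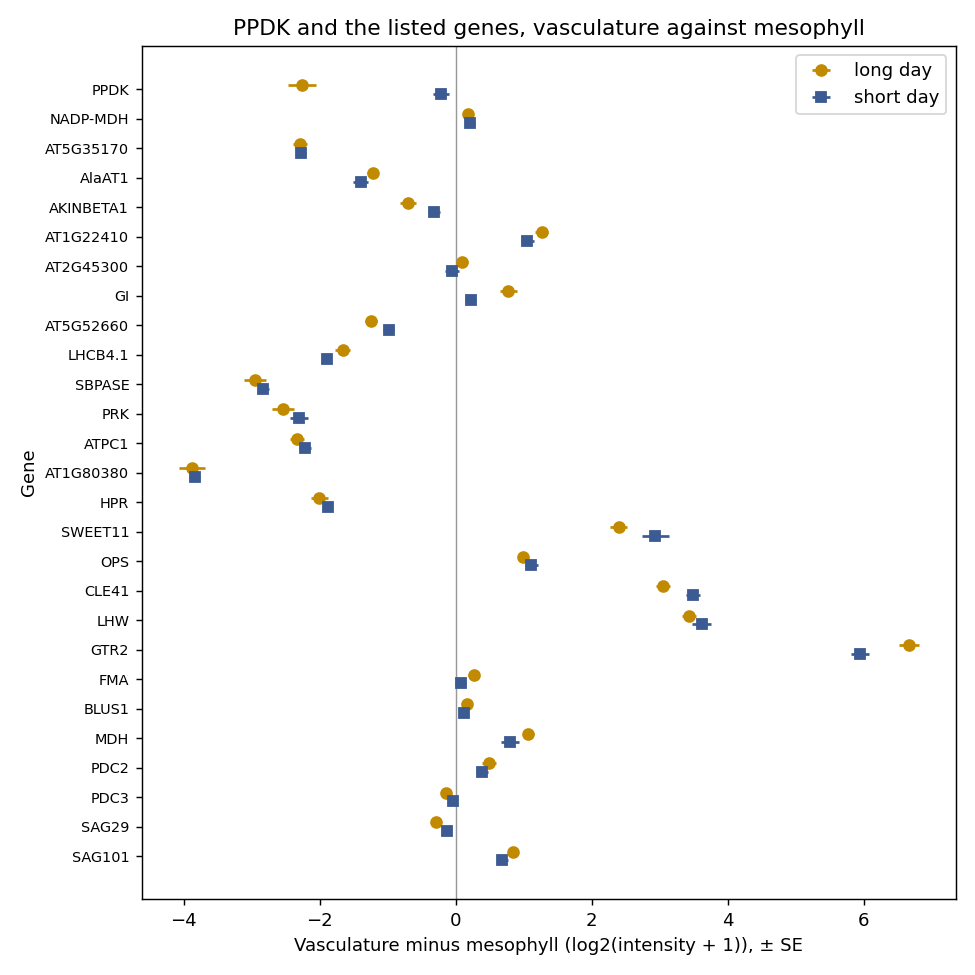
Vasculature minus mesophyll on the log2(intensity + 1) scale with its SE, for PPDK and each measured gene of the lists and markers, in long days (circles) and short days (squares). PPDK is at -2.26 in long and -0.21 in short days, while the mesophyll markers LHCB4.1 to HPR stay between -1.66 and -3.88 in both.

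The genes most like PPDK over the 72 arrays, among all kept probe sets of 1 gene, were AT1G70250 (Pearson's r = 0.83), AT3G56200 (0.81), AT1G31440 (0.80), AT1G48745 (0.80), AT1G69730 (0.80) and AT5G01320 (0.78). With each group's mean subtracted, which leaves the time course and the differences between days and arrays, AT3G56200 (0.78) and AT1G70250 (0.78) led, followed by AT3G27350 (0.75), AT3G52360 (0.74), AT3G23570 (0.73) and AT2G19650 (0.73). These points share arrays, times and days, and the values are descriptions.

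AT3G56200 had PPDK's long day trough, with whole leaf means of 3.03 at ZT8 and 2.94 at ZT12 against 4.97 to 5.66 at the other times. Its short day whole leaf peak at ZT4, however, reached 5.06, so that its day-length difference in whole leaf was 1.27 where PPDK's was 2.72. AT1G70250 had 0.79 and AT1G31440 0.81. In mesophyll the differences of the 6 most alike genes were 0.35 to 0.50, against 2.02 for PPDK. Some of these genes were dim, with group means of 1.70 to 2.72 for AT1G48745 and 1.71 to 2.60 for AT5G01320. On this scale the differences of dim genes are understated.

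The genes most opposed to PPDK were AT1G29370 (r = -0.73), AT4G31040 (-0.72) and WLIM2a (-0.72), an actin-binding LIM protein. WLIM2a was highest where PPDK was lowest in long day whole leaf, with means of 7.96 at ZT8 and 7.96 at ZT12 against 3.29 at ZT0. Its long day minus short day difference was -1.88 in whole leaf and -1.09 in mesophyll.

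**Figure D4:**
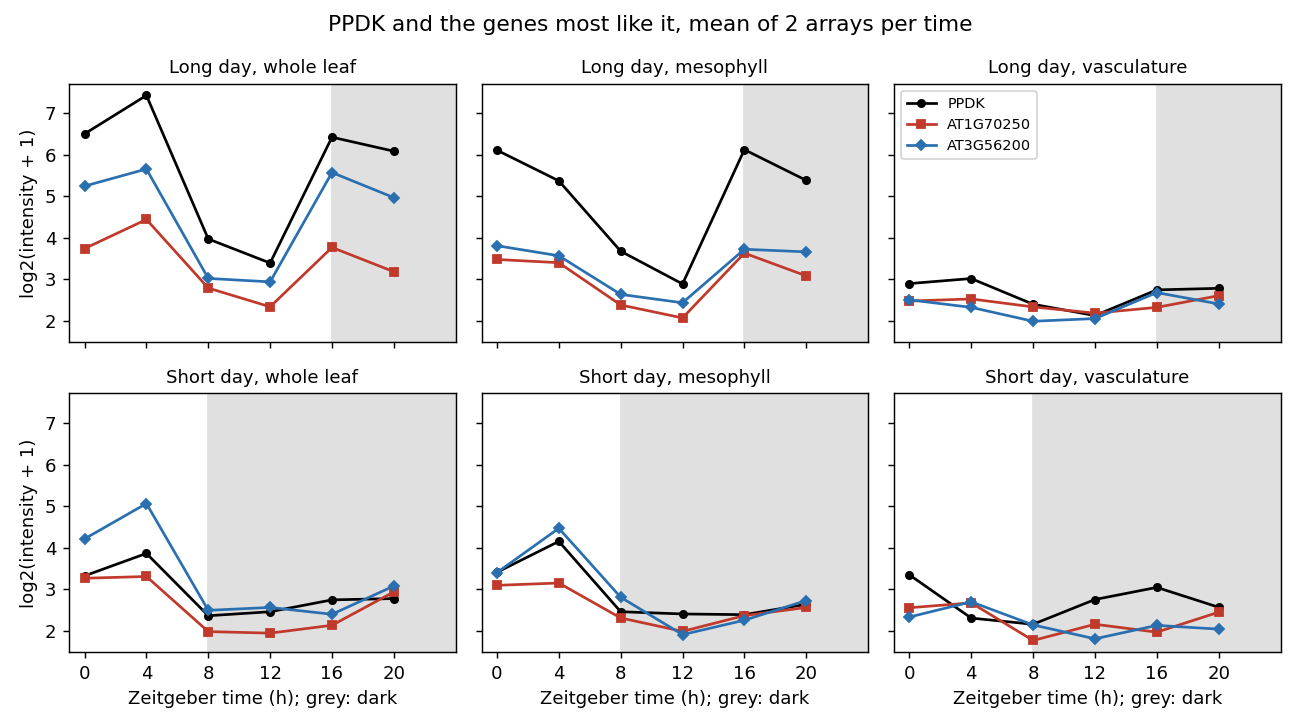
Mean of 2 arrays per time, as log2(intensity + 1) against Zeitgeber time in hours, for PPDK (circles), AT1G70250 (squares) and AT3G56200 (diamonds) in the 6 groups, with darkness in grey. The 3 genes share the drop at ZT8 and ZT12 and the return at ZT16 in long day whole leaf, where PPDK goes from 3.40 to 6.43.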

How the data were processed

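The authors deposited 1 linear intensity per probe set and array. The submitters' processing notes name GCRMA, without a version. That method corrects background from probe sequence, normalizes arrays to each other and sums probes, so a change shared by most genes would be removed and low values lean on the background estimate. Values were analysed as log2(intensity + 1), and a probe set was kept when above 2.77, the 40th percentile of all values, on 6 or more arrays (21827 of 28583 probe sets). On this scale the fold change of a dim gene is understated. Names came from the platform's annotation and from RefSeq (assembly TAIR10.1); genes without a RefSeq symbol keep their locus.

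Differences were fitted with limma 3.58.1 in R 4.3.3 on the arrays of the 2 groups compared, with 1 mean per group and time, and p-values were adjusted by Benjamini-Hochberg over all kept probe sets. Cycling was a moderated F test of a 24 h cosine and sine within a group. The series names HAYSTACK for cycling, which was not used here. The tests of differences were two-sided, the cycling and rhythm tests were F tests, and the fits were tested on data with known answers. Tables and figures used Python 3.11.15, pandas 2.3.3, numpy 2.4.6 and matplotlib 3.10.9.

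Named are PPDK, the measured genes of the lists and markers, and the 6 highest and 3 lowest correlations with PPDK, plus the 6 highest with group means subtracted. PPDK, the lists and the tests were chosen with earlier results of these data known. Promoter and protein sequence were not used here.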

Additional observations from a re-analysis of the deposited data

How the results depend on the processing

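Under every setting tried, the 7 differences between groups stayed on the same side of the minimum difference of 1 in size. In long days vasculature minus mesophyll ran from -2.76 to -1.21 and vasculature minus whole leaf from -3.27 to -1.73. The smallest sizes of both came from an added constant of 16. With the replicate number, that is the 12 time points, as a replicate block, both kept their values of -2.26 and -2.97. The numbers mark time points, not shared cultures. Calls are not weighed for the tissue differences, which draw on arrays of the selection. The day-length difference in vasculature was never called (limma adjusted p from 0.45 to 0.99). The cycling call of short day whole leaf was lost with an added constant of 16 (amplitude 0.21), without the filter (0.58), with age as a term (0.58), on day 9 alone (0.60) and on day 10 alone (0.58), and over single replicates left out the amplitude ran from 0.47 to 0.66, the call being lost without replicate 2, 4, 5, 7, 8 or 10. A filter at the 60th percentile, which tests fewer probe sets, gave calls in long day mesophyll (1.42), in short day mesophyll (0.80) and for the short day rhythm difference (0.94). With the 6 times as levels, chosen after seeing the data, the amplitude (0.5 of the range of the time means) was 2.02 in long day whole leaf, 1.62 in long day mesophyll and 0.59 in short day vasculature, all called, and the short day difference was 1.25, called. Replicates left out in turn gave amplitudes of 1.38 to 1.87 in long day whole leaf (called without replicate 5), 1.25 to 1.72 in long day mesophyll (called without 5, 6 or 8), 0.63 to 0.91 in short day mesophyll (called without 7) and 0.70 to 1.11 for the short day difference (called without 7). Over all probe sets, vasculature against mesophyll called 5570 in long days and 3168 with an added constant of 16, and the other differences lost calls likewise, mesophyll against whole leaf going from 2452 to 1180 in long days and from 2658 to 1267 in short days, vasculature against whole leaf from 4391 to 2464 and from 4570 to 2446, vasculature against mesophyll in short days from 5474 to 3048, and day length in vasculature from 322 to 113 (181 on day 9 alone). With the 6 times as levels, calls went from 2079 to 4228 in long day whole leaf, 2899 to 5555 in long day mesophyll, 689 to 1060 in long day vasculature, and 1559 to 3624 and 1339 to 2095 for the rhythm difference in long and short days. Cycling or rhythm differences on 1 day alone gave at most 38 calls, since 6 arrays a group remain, and leaving out replicates gave as few as 1370 in long day whole leaf and 386 in long day vasculature (405 with a constant of 16). Apart from the changes whose construction is named, the cause was not tested.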
